A study of Mus musculus with 9 samples.

Results

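Matrix metalloproteinases (MMPs) are zinc-dependent enzymes that cut the proteins of the extracellular matrix, and tissue inhibitors of metalloproteinases (TIMPs) bind their active sites and block them. The genes described here are the 6 MMP genes Mmp2, Mmp3, Mmp9, Mmp10, Mmp13 and Mmp14, the 3 TIMP genes Timp1, Timp2 and Timp3, and Adamts1. Adamts1 encodes a secreted metalloproteinase of a related family that cuts proteoglycans such as versican. These 10 genes were chosen by name, out of 56620 genes and loci with a value. Their level is FPKM (fragments per kilobase of transcript, relative to the mapped fragments of the library), summed over the Ensembl transcripts of the gene and scaled between libraries.

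The cells were bought as mouse pulmonary microvascular endothelial cells, which line the small vessels of the lung, and were cultured for 48 h in 3 conditions with 3 libraries each. HO-rWNT5A cells were kept in 85% oxygen with 100 ng/ml recombinant WNT5A, a secreted WNT ligand. HO cells were kept in 85% oxygen without it, and RA cells in room air with 21% oxygen. No label gives an animal, a strain, or separate cultures for the libraries of a group. The p-values therefore weigh differences against a spread between libraries that may be technical alone.

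MMPs are made as inactive proenzymes. MMP14 sits in the cell membrane and, with TIMP2 as an adaptor, activates the proenzyme of MMP2, a gelatinase that cuts denatured and basement membrane collagen. MMP9 is the other gelatinase, MMP3 and MMP10 are stromelysins that cut many matrix proteins and can activate other MMPs, and MMP13 is a collagenase. TIMP3 is the inhibitor that binds to the matrix itself, and in the lung these enzymes and inhibitors are known for remodelling of the matrix in growth and injury. RNA levels say nothing of the activation step.

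The genes Mmp3, Mmp10 and Mmp13 lie together on chromosome 9, in a cluster of 10 MMP genes between 7272514 and 7699585 (GRCm38). Their proximal promoters are shown because they hold the same short motifs, while the RNA levels of these genes differ. The windows run from 250 bases before to 50 bases after the start of the gene, from RefSeq (GRCm38.p6), with the MMP genes on the plus strand. Capitals mark matches to the AP-1 motif TGANTCA, bound by FOS and JUN proteins, and to the TATA box letters TATAAA. Adamts1, on the minus strand of chromosome 16, is shown for contrast.
Mmp10 (chr9:7502092-7502391): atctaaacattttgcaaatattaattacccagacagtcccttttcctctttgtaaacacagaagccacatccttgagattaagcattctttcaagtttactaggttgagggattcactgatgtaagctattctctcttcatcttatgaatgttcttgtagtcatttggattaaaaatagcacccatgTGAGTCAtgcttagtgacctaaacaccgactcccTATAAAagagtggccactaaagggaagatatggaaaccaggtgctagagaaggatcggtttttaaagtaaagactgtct
Mmp3 (chr9:7445572-7445871): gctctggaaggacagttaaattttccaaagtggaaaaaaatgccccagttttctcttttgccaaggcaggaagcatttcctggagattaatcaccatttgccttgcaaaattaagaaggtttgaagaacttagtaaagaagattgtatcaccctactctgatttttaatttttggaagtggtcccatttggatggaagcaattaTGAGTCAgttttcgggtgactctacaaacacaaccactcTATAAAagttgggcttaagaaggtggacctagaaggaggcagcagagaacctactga
Mmp13 (chr9:7272264-7272563): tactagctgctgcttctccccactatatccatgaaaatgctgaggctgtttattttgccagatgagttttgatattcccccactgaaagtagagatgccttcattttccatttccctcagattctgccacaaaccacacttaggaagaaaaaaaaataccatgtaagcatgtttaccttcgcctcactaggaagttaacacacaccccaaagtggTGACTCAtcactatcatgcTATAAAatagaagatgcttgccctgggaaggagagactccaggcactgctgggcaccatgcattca
Adamts1 (chr16:85803064-85803363): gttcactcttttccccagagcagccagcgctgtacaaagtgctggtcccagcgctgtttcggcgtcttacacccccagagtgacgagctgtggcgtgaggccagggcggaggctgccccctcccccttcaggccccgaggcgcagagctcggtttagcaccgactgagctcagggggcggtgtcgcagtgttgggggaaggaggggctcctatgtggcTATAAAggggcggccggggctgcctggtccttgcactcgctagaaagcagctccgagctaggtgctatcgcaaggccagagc

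Of the 10 genes, 8 matched a promoter window, Mmp2 and Mmp9 being the others. TGANTCA, searched on both strands and including the canonical TGAGTCA, was found in 3 of the 8 windows, those of Mmp3, Mmp10 and Mmp13. It was held by 7.81% of all 32851 windows of the reference table, and TGAGTCA by 5.2%. In the chromosome 9 cluster, 8 of 10 genes had TGANTCA in a window. That count is per gene, with 2 windows each for Mmp12 and Mmp7, while the 7.81% is per window. TATAAA was found in 4 of the 8 windows and in 13.6% of all windows. AGGAAG, the core of the PEA3 site bound by ETS factors, was in the windows of Mmp3, Mmp13, Mmp14, Timp1 and Timp3 and in 35.4% of all windows. These matches describe letters, not bound sites.

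The labelled cell type was checked against its markers first. Of 12 endothelial marker genes, 8 averaged under 0.1 FPKM, among them Pecam1 with 0.0932 and Cdh5 with 0.0544 FPKM. Only Emcn, at 10.1 FPKM, reached 5 FPKM. Of 10 pericyte and smooth muscle markers, 7 reached 5 FPKM, led by Acta2 at 1580 FPKM. Among the 10 leukocyte and macrophage markers none averaged 5 FPKM or more, and Lyz2 at 4.49, Cd14 at 4.29 and Cd68 at 1.44 FPKM were the highest. Of the 10, 6 averaged under 0.1 FPKM, and Ly6g and S100a9 were listed at 0 in every library. The neutrophil marker S100a8 had 0.0684, 0.179 and 0.158 FPKM in HO-rWNT5A libraries and 0, 0.0637 and 0.178 FPKM in HO libraries, and was listed at 0 in all RA libraries. Of 10 epithelial markers, 4 reached 5 FPKM, led by Krt18 at 54.8 and Cldn4 at 42.8 FPKM. Of 10 fibroblast markers, 3 reached 5 FPKM, Col1a1 at 184, Col1a2 at 45.3 and Col3a1 at 16.8, and 3 averaged under 0.1 FPKM. The pericyte marker Notch3 was the 1 marker past the threshold. It was at 6.80, 9.05 and 8.36 FPKM in HO libraries and 5.49, 4.95 and 3.90 FPKM in RA libraries. Of the 7 tested markers of its list, it alone had a difference above 0 in HO against RA. The median of the 7 was -0.194, beside -0.00636 over all genes tested. Among all tested genes 1.19% passed as higher in HO. Notch3 rose by 0.65 ± 0.13 in HO against RA (limma adjusted p = 0.0363), a call lost in 12 of 21 alternatives. Among these were leaving out HO replicate 2 (0.102), RA replicates 1, 2 and 3 (0.0708, 0.114 and 0.125) and HO-rWNT5A replicates 2 and 3 (0.0623 and 0.0505), each in turn. The markers thus go against the label of endothelial cells, and the levels below are those of these cultures. Fewer cells of a type and less RNA per cell cannot be told apart in bulk RNA. Structural RNA took 20.6% of the FPKM of HO replicate 3, against 27.8% and 27.0% in the other HO libraries and 21.9% to 28.5% in the other groups. HO replicates 2 and 3 had the lowest correlation within a group (r = 0.9857 across tested genes, which are not independent).

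The levels covered 3 ranges, with Timp1, Mmp2 and Timp2 at the top. Over the 9 libraries Timp1 averaged 220.9 ± 25.8 FPKM, Mmp2 199.2 ± 12.6 and Timp2 197.1 ± 19.95 (SD, n = 9). Of the 13831 genes that were tested, 1.06% had a higher mean than Timp1, 1.32% a higher mean than Mmp2 and 1.34% a higher mean than Timp2. The order among these genes was not the same in every library. Timp1 was above Mmp2 in 7 of 9 libraries, which were all HO-rWNT5A and HO libraries and 1 of 3 RA libraries. Mmp2 was above Timp2 in 6 of 9, with 3 of 3 HO-rWNT5A, 2 of 3 HO and 1 of 3 RA libraries. These orders were not tested.

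Next came Adamts1 with 85.5 ± 12.8 FPKM and Mmp14 with 76.5 ± 2.1 FPKM, of which Adamts1 was the higher in 7 of 9 libraries. Mmp9 averaged 22.7 ± 4.1 and Timp3 22.2 ± 1.9 FPKM. Mmp9 was above Timp3 in all 6 libraries in 85% oxygen and in 0 of 3 RA libraries. The remaining genes were low. Mmp10 averaged 0.99 ± 0.29 FPKM and Mmp13 0.088 ± 0.031 FPKM. Mmp3 was listed at 0 in 7 of 9 libraries and reached 0.062 FPKM at most. A mean of at least 1 FPKM was needed for the test, which 7 of the 10 genes had. The 3 others were Mmp3, Mmp10 and Mmp13.

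**Figure D1:**
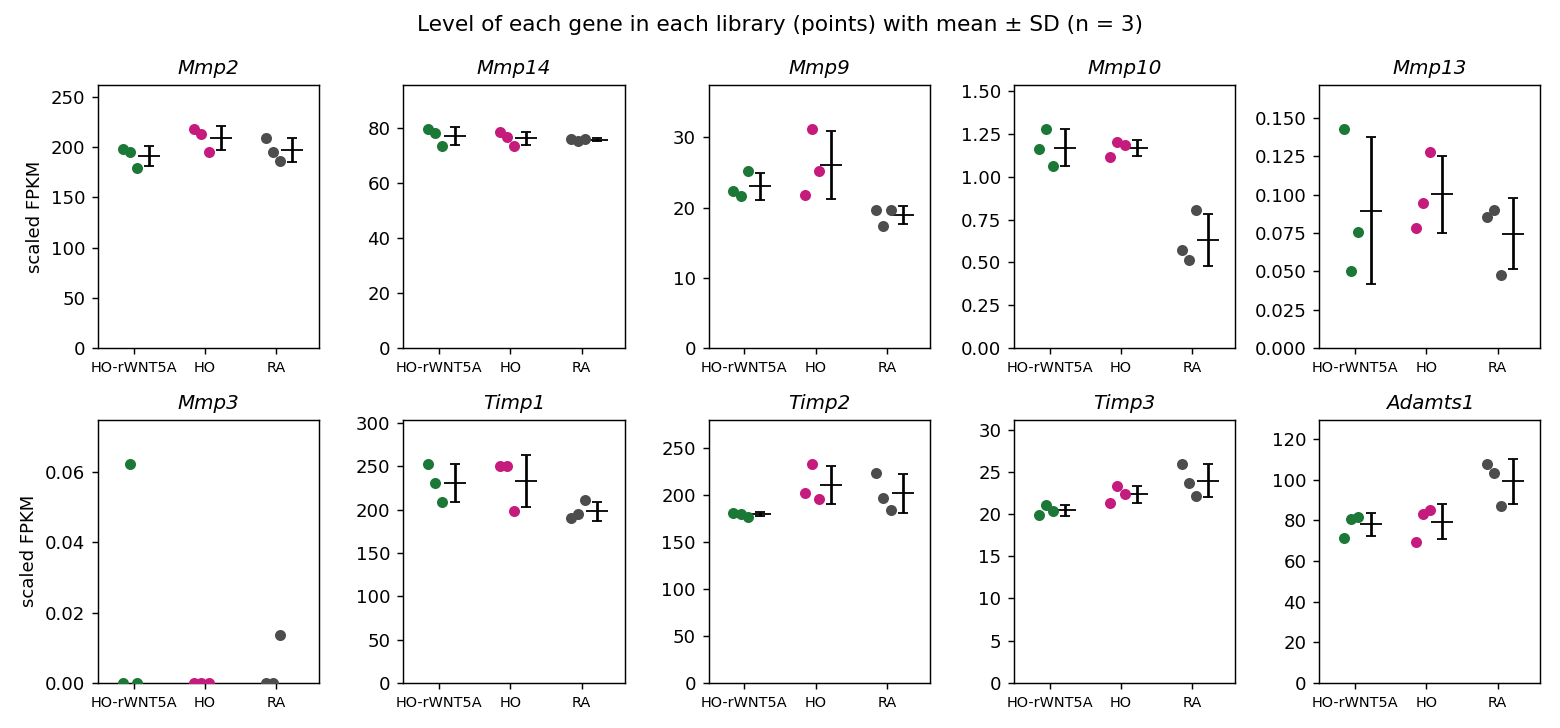
Scaled FPKM (linear axes from 0, a scale per gene) of the 10 genes in HO-rWNT5A, HO and RA libraries; points are libraries, and bars give the mean ± SD of 3 libraries (none for Mmp3, which was listed at 0 in most). Mmp10 has all 6 libraries in 85% oxygen above the 3 RA libraries, Adamts1 has them below, and Mmp14 lies between 73.4 and 79.9 FPKM throughout.

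The effect of 85% oxygen on these genes was read from HO against RA. None of the 7 tested genes passed (limma adjusted p from 0.089 to 0.952), where 1.97% of all tested genes passed, 1.19% higher and 0.781% lower in HO. At an unadjusted p under 0.05 there were 2 of 7, Mmp9 and Adamts1, against 18.2% of all genes tested. The groups did not overlap for 2 of the 7 tested genes, Mmp9 and Adamts1, against 21.5% of all genes tested. Of all genes tested, 11.1% were higher and 10.4% lower in HO without overlap. Mmp10, which was not tested, was higher in HO without overlap. The median difference of the 7 genes was 0.062 on the log2(FPKM + 1) scale, beside -0.00636 over all genes tested. It was below 0 for 2 of the 7 and for 51.8% of all genes tested.

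Mmp9 (chromosome 2, 164940780 to 164955850) had 21.8, 31.2 and 25.2 FPKM in HO replicates 1, 2 and 3, against 19.6, 17.4 and 19.7 FPKM in RA replicates 1, 2 and 3. Every HO library was above every RA library, and HO replicate 2 was the highest. The difference was 0.43 ± 0.11 (SE) on the log2(FPKM + 1) scale, with a 95% interval of 0.18 to 0.68 and a limma adjusted p of 0.089. Without HO replicate 1 it was 0.55 and passed (adjusted p = 0.0362). Over all 21 alternatives the adjusted p ran between 0.0362 and 0.265. MMP9 is abundant in neutrophils and macrophages. The summed level of the 10 leukocyte and macrophage markers was 9.08 to 15.6 FPKM in HO libraries and 9.37 to 10.6 FPKM in RA libraries, and overlapped. Most of that sum was Lyz2, Cd14 and Cd68. Lyz2 had 8.75, 2.47 and 3.32 FPKM in HO libraries and 3.71, 4.03 and 4.90 FPKM in RA libraries. Cd14 averaged 4.55 FPKM in HO and 4.14 in RA, and Cd68 1.46 and 1.45. These 3 were tested, and 0 passed in limma. Of the neutrophil markers in the list, Ly6g and S100a9 were at 0 throughout. S100a8 was at 0 in all RA libraries and in HO replicate 1. It was near 0, at 0.0637 and 0.178 FPKM, in HO replicates 2 and 3. The part of these cells in the result was not tested.

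Adamts1 (chromosome 16, 85793827 to 85803113) was at 69.4, 83.3 and 85.2 FPKM in HO libraries and at 108.0, 103.1 and 86.9 FPKM in RA libraries. All HO libraries were below all RA libraries, with HO replicate 3 and RA replicate 3 close to each other. The difference was -0.32 ± 0.10 (95% interval -0.55 to -0.10, limma adjusted p = 0.136). It kept its sign under all 21 alternatives and passed under none, with adjusted p from 0.0735 to 0.343. The summed level of 10 fibroblast markers was 214.3 to 263.6 FPKM in HO libraries and 264.5 to 282.4 FPKM in RA libraries. Nearly all of it was RNA of the collagen genes Col1a1, Col1a2 and Col3a1, which are on the list of matrix genes too. Of these markers 3 were tested and 0 passed in limma. Col1a1, Col1a2 and Col3a1 averaged 184, 45.3 and 16.8 FPKM. The other genes of this list each averaged under 1 FPKM, from Pdgfra at 0.666 FPKM down to Dpt, at 0 in every library. The part of fibroblasts in the result was not tested.

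Mmp10 (chromosome 9, 7502352 to 7510240) had 1.12, 1.20 and 1.19 FPKM in HO libraries, against 0.570, 0.516 and 0.805 FPKM in RA libraries. The HO values lay close together and above all RA values, with a ratio of means of 1.85. An exact two-sided permutation test gave p = 0.1, the smallest that 3 libraries against 3 allow. A single transcript of 1722 bases is annotated. From a rough estimate of depth, about 42 to 45 fragments lay behind Mmp10 in each HO library and about 21 to 37 in each RA library. Fitted with no filter on low values, the difference was 0.42 ± 0.089 (limma adjusted p = 0.132 over 33928 genes). With a pseudocount of 0.1 as well, chosen after seeing the data, it was 0.82 ± 0.17 (95% interval 0.41 to 1.22, limma adjusted p = 0.125).

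The inhibitors did not pass either. Timp1 (chromosome X, 20870166 to 20874735) was at 250.8, 250.8 and 198.6 FPKM in HO libraries and at 189.7, 194.5 and 210.6 FPKM in RA libraries. HO replicate 3 lay within the RA range, unlike the other HO libraries. The difference was 0.23 ± 0.10 (95% interval -0.0027 to 0.46, limma adjusted p = 0.28). Without HO replicate 3 it was 0.34 and passed (adjusted p = 0.0476), in a range of 0.0476 to 0.535 over the alternatives.

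Timp2 (chromosome 11, 118301069 to 118355740) had 202.5, 233.4 and 195.2 FPKM in HO libraries and 223.8, 196.8 and 184.0 FPKM in RA libraries, and the groups overlapped. Its difference was 0.06 ± 0.087 (95% interval -0.13 to 0.26, limma adjusted p = 0.747). Timp3 (chromosome 10, 86300372 to 86349506) had 21.3, 23.3 and 22.4 FPKM in HO libraries and 25.98, 23.7 and 22.1 FPKM in RA libraries. These overlapped as well, with a difference of -0.09 ± 0.066 (95% interval -0.24 to 0.051, limma adjusted p = 0.479).

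Mmp2 and Mmp14, the gelatinase and its membrane activator, were close between HO and RA. Mmp2 (chromosome 8, 92827291 to 92853420) was at 218.4, 213.3 and 195.7 FPKM in HO libraries and at 209.6, 195.6 and 186.4 FPKM in RA libraries. The difference was 0.08 ± 0.071 (95% interval -0.074 to 0.24, limma adjusted p = 0.568). Mmp14 (chromosome 14, 54431612 to 54445364) averaged 76.3 ± 2.4 FPKM in HO and 75.9 ± 0.53 FPKM in RA (SD, n = 3 each). The interval of its difference, -0.11 to 0.12, was the narrowest of the 7 genes, and its sign changed under other scalings. Mmp13 (chromosome 9, 7272514 to 7283331) had 0.0785 to 0.128 FPKM in HO libraries and 0.0480 to 0.0902 FPKM in RA libraries, which overlapped. Mmp3 (chromosome 9, 7445822 to 7455975) was listed at 0 in all HO libraries and in RA replicates 1 and 2, and at 0.0136 FPKM in RA replicate 3.

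**Figure D2:**
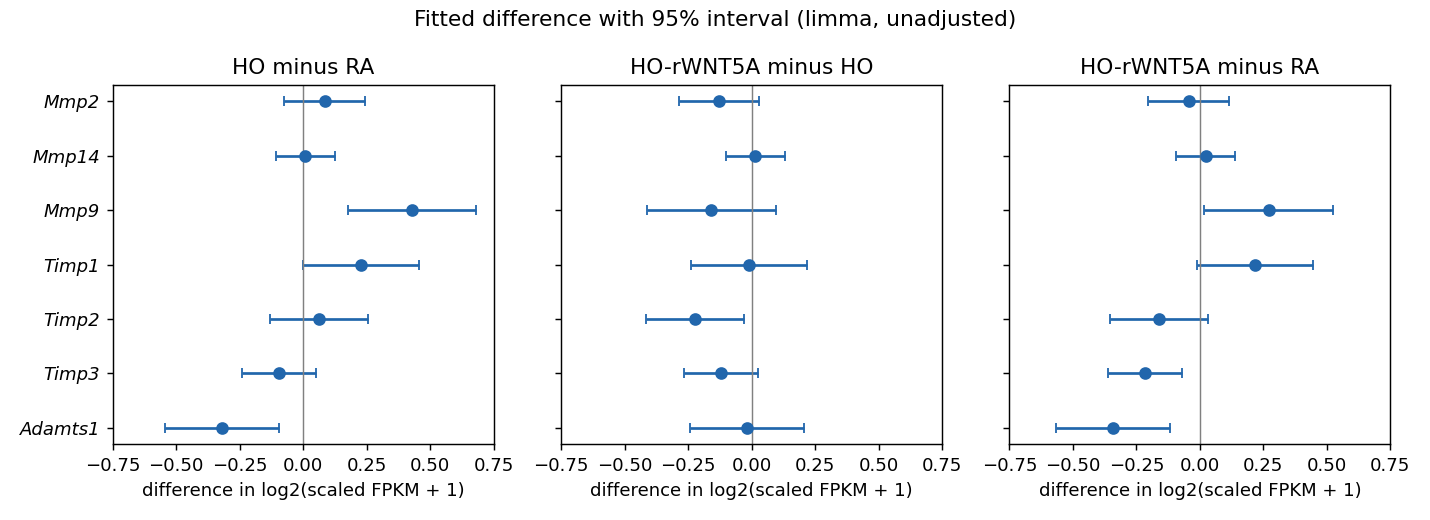
Fitted differences in log2(scaled FPKM + 1) of the 7 tested genes (points) with unadjusted 95% intervals from limma, for HO minus RA, HO-rWNT5A minus HO and HO-rWNT5A minus RA. Mmp9 and Adamts1 have intervals clear of 0 on opposite sides in the left and right panels, Timp3 has one below 0 in the right panel (-0.36 to -0.071), and in the middle panel Timp2 alone does (-0.42 to -0.031).

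The effect of recombinant WNT5A under 85% oxygen was read from HO-rWNT5A against HO. Again 0 of 7 genes passed in limma (adjusted p from 0.5 to 0.986), beside 0.00723% of all tested genes, which is 1 gene. At an unadjusted p under 0.05 there was 1 of 7, Timp2, against 9.27% of all genes tested. The groups did not overlap for 2 of the 7 tested genes, Timp2 and Timp3, against 13.1% of all genes tested. Of all genes tested, 6.3% were higher and 6.75% lower in HO-rWNT5A without overlap. The 7 differences had a median of -0.122 beside 0.00316 over all tested genes, and 6 of them were below 0, against 48.8% of all genes tested. The signs of Timp1 and Adamts1 turned under scaling to the protein-coding total and by quantiles.

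Timp2 was at 181.1, 180.2 and 176.9 FPKM in HO-rWNT5A libraries, a spread of 2.23 FPKM (SD), against 202.5, 233.4 and 195.2 FPKM in HO libraries. All HO-rWNT5A libraries were below all HO libraries, and HO replicate 2 was the farthest away. The difference was -0.22 ± 0.087 (95% interval -0.42 to -0.031, limma adjusted p = 0.5). Over 21 alternatives it lay between -0.28 and -0.15, with adjusted p from 0.152 to 0.886.

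Timp3 had 19.8, 21.1 and 20.4 FPKM in HO-rWNT5A libraries and 21.3, 23.3 and 22.4 FPKM in HO libraries. The highest HO-rWNT5A value and the lowest HO value were almost level. The difference was -0.12 ± 0.066 (95% interval -0.27 to 0.024, limma adjusted p = 0.586). Timp1 had 253.1, 231.0 and 209.2 FPKM in HO-rWNT5A libraries, overlapping the HO values given above. Its difference of -0.01 ± 0.10 (95% interval -0.24 to 0.22, limma adjusted p = 0.986) changed sign under 6 of 21 alternatives.

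Mmp2 was at 198.5, 195.2 and 179.8 FPKM in HO-rWNT5A libraries, of which the highest exceeded the lowest HO library. The difference was -0.13 ± 0.071 (95% interval -0.29 to 0.029, limma adjusted p = 0.599). Mmp9 had 22.3, 21.6 and 25.2 FPKM in HO-rWNT5A libraries, overlapping HO (difference -0.16, 95% interval -0.41 to 0.095, limma adjusted p = 0.698). For Mmp14 the interval was -0.10 to 0.13, and for Adamts1, at 71.6, 80.6 and 81.8 FPKM in HO-rWNT5A libraries, it was -0.24 to 0.21. Mmp10 had 1.16, 1.28 and 1.06 FPKM in HO-rWNT5A libraries, around the HO values, with a ratio of means of 1.00. Mmp13 had 0.050 to 0.143 FPKM in HO-rWNT5A libraries. Mmp3 was at 0 in HO-rWNT5A replicates 1 and 3 and at 0.062 FPKM in replicate 2, a value of the order of a few fragments.

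HO-rWNT5A was also set against RA, a comparison that shares its libraries with the others. In limma 0 of 7 genes passed (adjusted p from 0.0857 to 0.846), where 4.34% of all tested genes passed. At an unadjusted p under 0.05 there were 3 of 7, Mmp9, Timp3 and Adamts1, against 21% of all genes tested. The groups did not overlap for 4 of the 7 tested genes, against 32.9% of all genes tested, 16.2% higher and 16.7% lower in HO-rWNT5A. Of the 4, Mmp9 was higher and Timp2, Timp3 and Adamts1 were lower in HO-rWNT5A. Mmp10, which was not tested, was higher there without overlap. The median difference of the 7 genes was -0.0445 beside -0.00469 over all genes tested, and 4 were below 0, against 51.3% of all genes tested.

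Adamts1 differed by -0.34 ± 0.10 (95% interval -0.57 to -0.12, limma adjusted p = 0.0857), Timp3 by -0.22 ± 0.066 (-0.36 to -0.071, adjusted p = 0.0899) and Mmp9 by 0.27 ± 0.11 (0.017 to 0.52, adjusted p = 0.209). On FPKM as deposited, Adamts1 (adjusted p = 0.0383) and Timp3 (adjusted p = 0.0328) passed, and with HO-rWNT5A and RA fitted alone, Adamts1 (0.0438) and Mmp9 (0.0498) did. As deposited, 824 of 13831 genes passed, 209 of them higher in HO-rWNT5A, beside 600 and 335 in the main fit. The median difference over all genes tested was -0.0618 without scaling, against -0.00469 with it. With the 2 groups alone more genes passed as well, as given below. The adjusted p over all alternatives ran from 0.0383 to 0.263 for Adamts1, from 0.0328 to 0.272 for Timp3 and from 0.0498 to 0.458 for Mmp9. The summed fibroblast markers, nearly all collagen RNA, were at 191.0 to 262.9 FPKM in HO-rWNT5A libraries and 264.5 to 282.4 FPKM in RA libraries. The part of fibroblasts in the values of Adamts1 and Timp3 was not tested. Mmp10 had a ratio of means of 1.86 (no filter and pseudocount 0.1, difference 0.81 ± 0.17, limma adjusted p = 0.0939).

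The summed RNA of inhibitors and of enzymes overlapped between the 3 groups in its ratio. The 3 TIMP genes summed to 430.9 ± 23.9 FPKM in HO-rWNT5A, 466.1 ± 46.3 in HO and 423.8 ± 13.6 in RA (SD, n = 3 each). The 6 MMP genes summed to 292.6 ± 11.6 FPKM in HO-rWNT5A, 312.8 ± 14.7 in HO and 292.7 ± 12.1 in RA. The ratio of the TIMP to the MMP sum was 1.504, 1.46 and 1.45 in HO-rWNT5A libraries, 1.48, 1.57 and 1.41 in HO libraries, and 1.44, 1.44 and 1.47 in RA libraries. All groups overlapped. Mmp2 alone made up 64.3% to 68.5% of the MMP sum.

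Within the TIMP sum the share of Timp1 was 51.5% to 55.7% in HO-rWNT5A libraries, 47.7% to 52.8% in HO libraries and 43.2% to 50.5% in RA libraries. The ratio of Timp1 to Timp2 was 1.397, 1.28 and 1.18 in HO-rWNT5A, 1.24, 1.08 and 1.02 in HO, and 0.848, 0.988 and 1.14 in RA. HO-rWNT5A and RA did not overlap in it, with 1.18 and 1.14 as the nearest values, while HO overlapped with both. Of all single genes tested, 32.9% did not overlap between HO-rWNT5A and RA. No test was made on these sums and ratios.

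By transcript, 1 coding transcript carried most of each tested gene, Timp1 apart. Mmp2-201 held 98.4% to 98.9% of Mmp2, Mmp9-201 98.7% to 99.9% of Mmp9, Mmp14-201 89.5% to 92.8% of Mmp14, Timp3-201 91.1% to 96.3% of Timp3 and Adamts1-201 94.7% to 97.6% of Adamts1. Retained-intron forms of Mmp14 were present, the largest of them, Mmp14-205, at 3.18% to 3.92%. Timp1 was divided between the coding transcripts Timp1-201, with 46.1% to 57.5%, and Timp1-202. The division is uncertain because fragments of shared bases can be given to either. Timp1 and Timp3 each lie inside a synapsin gene on the opposite strand, Syn1 with a mean of 1.94 FPKM and Syn3 with 1.59 FPKM. Timp2 overlaps Cep295nl, with 5.58 FPKM, on its own strand. Whether strand was used in counting is not given in the sources used here.

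The rest of the MMP family added little RNA. Of 17 other MMP genes 6 reached a mean of 1 FPKM, led by Mmp23 with 12.2 FPKM, Mmp11 (stromelysin-3) with 5.22 and the membrane-type Mmp15 with 4.2. None of the 6 passed in any comparison in limma. In the chromosome 9 cluster Mmp10 was the highest. The other genes of the cluster, among them Mmp13, Mmp12 and Mmp7, had means of 0.088 FPKM or less, and Mmp1a and Mmp20 were at 0 in every library. The windows of Mmp3, Mmp13 and Mmp10 each held TGANTCA and TATAAA. Timp4, the remaining TIMP gene, was listed at 0 in all libraries but RA replicate 1, where it had 0.00435 FPKM. Reck, a membrane-anchored MMP inhibitor, averaged 1.84 FPKM.

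**Figure D3:**
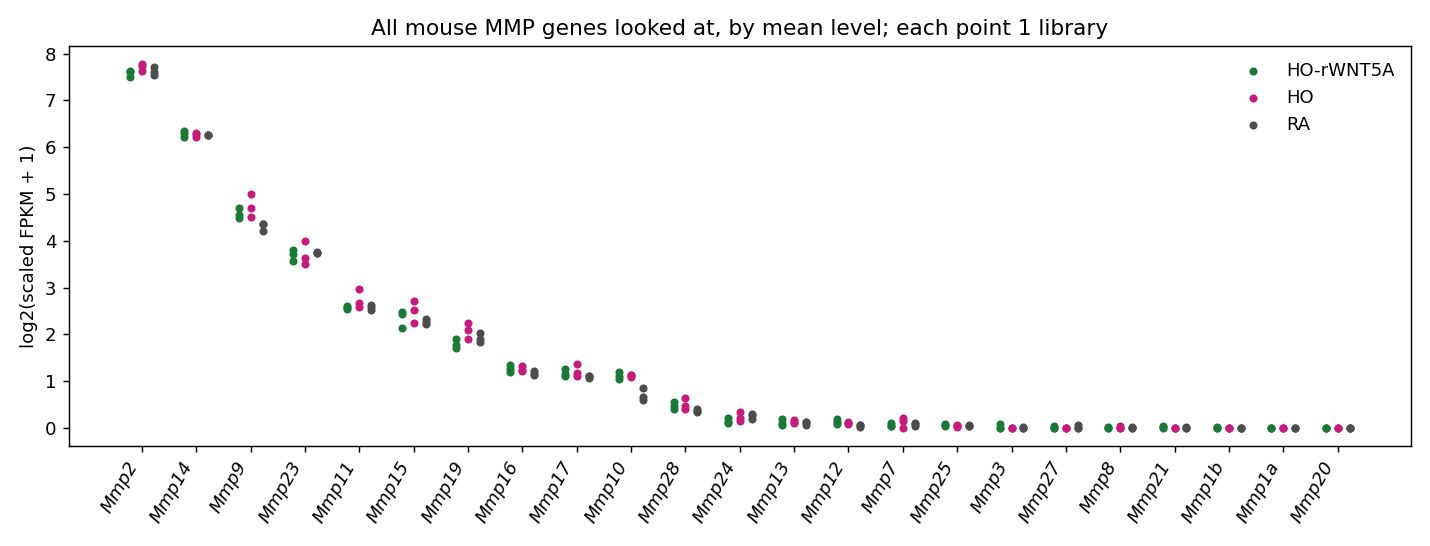
log2(scaled FPKM + 1) of 23 MMP genes, ordered by their mean over the 9 libraries; each point is a library, coloured by group with HO-rWNT5A to the left, HO in the middle and RA to the right. Mmp2, Mmp14 and Mmp9 are the highest, and the genes to the right of Mmp10 all lie under 1 on this axis.

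Other genes of pericellular proteolysis were described from lists. Of 9 genes of plasminogen activation 7 were tested, and Serpinb2, which encodes the plasminogen activator inhibitor PAI-2, was the 1 that passed. It had 9.25, 8.35 and 7.995 FPKM in HO-rWNT5A libraries, 9.20, 7.06 and 8.69 in HO libraries, and 5.57, 4.92 and 6.0 in RA libraries. All libraries in 85% oxygen were above all RA libraries. Serpinb2 rose by 0.52 ± 0.10 in HO against RA (limma adjusted p = 0.0345) and by 0.55 ± 0.10 in HO-rWNT5A against RA (adjusted p = 0.0177). Among tested genes 1.19% and 2.42% rose in these comparisons. The call against RA for HO-rWNT5A was lost in 6 of 21 alternatives. Among these were no filter on low values (0.0727), and leaving out HO-rWNT5A replicates 1 and 2 (0.0623 and 0.0625) and RA replicates 1 and 2 (0.0663 and 0.0668) in turn. The call in HO against RA was lost in 11 of 21 alternatives, including without HO replicate 1 (0.0718) and without RA replicates 1, 2 and 3 in turn (0.100, 0.132 and 0.0832). The call was also lost without HO-rWNT5A replicates 2 and 3 in turn (0.0622 and 0.0505), which enter only the shared spread. The activator genes Plau, with a mean of 242 FPKM, and Plat, with 235 FPKM, did not pass.

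Of 18 other ADAMTS genes 8 were tested and 1 fell, against 1.92% of all tested genes, in HO-rWNT5A against RA. This was Adamts14, which encodes a procollagen N-proteinase. It had 2.22, 2.09 and 1.82 FPKM in HO-rWNT5A libraries and 2.97, 2.93 and 2.999 FPKM in RA libraries, with no overlap. The difference was -0.39 ± 0.081 (limma adjusted p = 0.0299). The call did not hold without any single library of these 2 groups (adjusted p 0.0557 to 0.101). Adamts5, the aggrecanase with the highest level of the list at 14.9 FPKM, did not pass. None of 6 tested ADAM sheddases passed, Adam9 being the most abundant at 56.6 FPKM.

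Among 10 convertases and surface partners, 1 fell in HO-rWNT5A against RA, beside 1.92% of all tested genes. This was Pcsk5, a proprotein convertase, with 1.90, 2.07 and 1.96 FPKM in HO-rWNT5A libraries and 2.94, 2.64 and 2.61 FPKM in RA libraries. Its difference of -0.32 ± 0.079 (limma adjusted p = 0.0493) shrank to -0.09 when protein-coding transcripts alone were summed (adjusted p = 0.683), and the call was also lost without each library of the 2 groups (0.114 to 0.167). Furin, which activates the MMP14 proenzyme, and the MMP9 docking receptor Cd44 did not pass. Of 11 tested matrix genes, led by Fn1 at 1330 FPKM, 0 passed in each comparison in limma.

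Some MMP and TIMP genes are textbook targets of AP-1 and ETS factors. Of a list of 15 factor genes, which holds AP-1, ETS and RUNX genes and Egr1, all were tested. Of these, 3 rose in HO against RA and 6 in HO-rWNT5A against RA, beside the 1.19% and 2.42% of all tested genes, and 0 fell. The median differences were 0.237 and 0.209. Fosl1, a FOS family member of AP-1, had 10.1, 12.2 and 11.8 FPKM in HO-rWNT5A libraries, 9.66, 11.4 and 11.6 in HO libraries, and 6.75, 6.14 and 7.86 in RA libraries. All libraries in 85% oxygen exceeded all RA libraries, and Fosl1 rose by 0.59 ± 0.10 in HO against RA (limma adjusted p = 0.0232). That call was lost in 8 of 21 alternatives. Among these were no filter on low values (0.0942) and protein-coding transcripts only (0.0562). Others were leaving out HO replicate 2 (0.0698) and RA replicates 1, 2 and 3 in turn (0.0810, 0.0970 and 0.0533).

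Egr1, an early growth response factor, had 32.9, 30.6 and 33.6 FPKM in HO-rWNT5A libraries, 33.9, 34.6 and 36.3 in HO libraries, and 21.95, 20.01 and 22.5 in RA libraries. Egr1 rose by 0.68 ± 0.061 in HO against RA (limma adjusted p = 0.00699), and its calls against RA held under all 21 alternatives. Atf3, an ATF family factor that can join AP-1, rose by 0.86 ± 0.15 in HO against RA (limma adjusted p = 0.0217). That call was lost in 5 of 20 alternatives, among them no filter on low values (0.103) and leaving out any single RA library (0.0767 to 0.0944). Fosl1, Egr1, Atf3, Fos, Fosb and Ets1 rose in HO-rWNT5A against RA. In that comparison Fos differed by 0.34 ± 0.073 (limma adjusted p = 0.0311), Fosb by 0.45 ± 0.091 (0.0258) and Ets1 by 0.28 ± 0.064 (0.0389). Atf3 differed there by 0.71 (limma adjusted p = 0.0267), a call lost in 7 of 20 alternatives. Among these were no filter on low values (0.11), and leaving out each RA library and HO-rWNT5A replicates 2 and 3 in turn (0.0811 to 0.0921). Leaving out any single library of the 2 groups ended the calls of Fos, Fosb and Ets1, with adjusted p of at most 0.118, 0.110 and 0.130. Fosb lay near the mean of 1 FPKM needed for the test, with 1.22 FPKM over all libraries. Its mean was 1.47 FPKM in HO-rWNT5A and 1.39 in HO, but 0.808 in RA, which is under that level. The most abundant factor genes of the list, Jund with a mean of 117 FPKM and Junb with 72.5 FPKM, did not pass. In HO-rWNT5A against HO 0 of the 15 passed in limma, with a median of 0.0166.

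**Figure D4:**
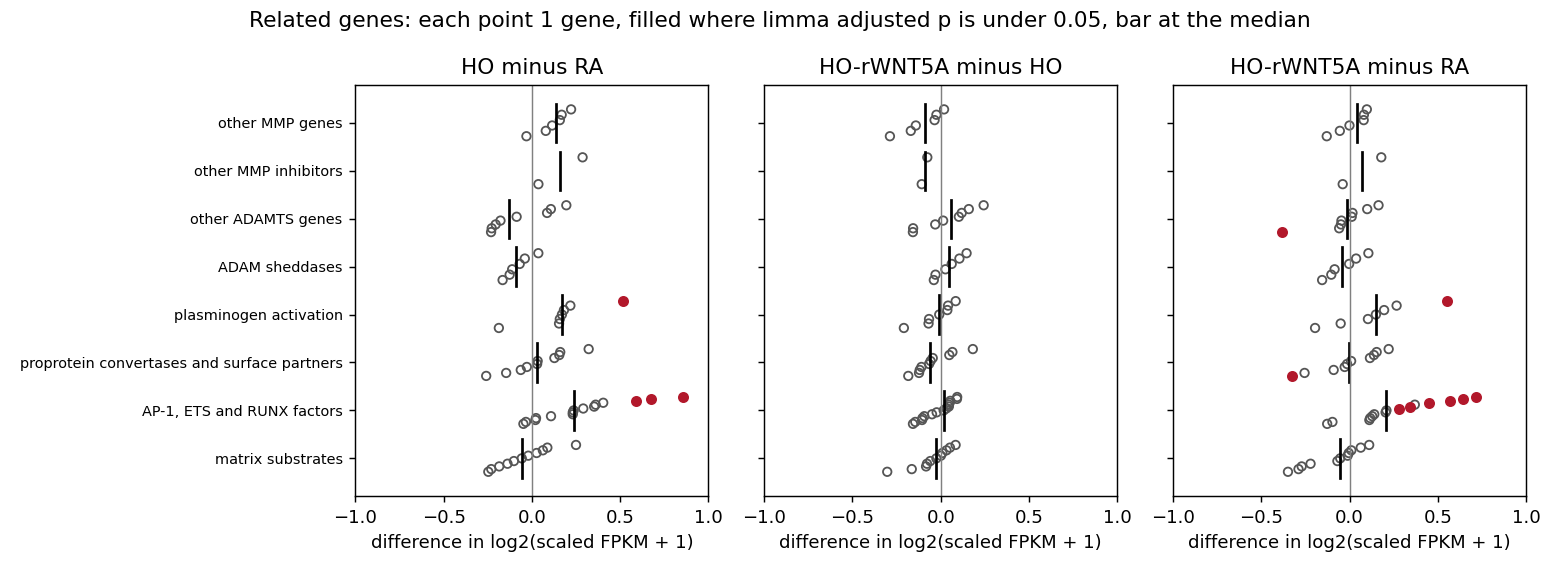
Differences in log2(scaled FPKM + 1) of tested genes in 8 related lists, for HO minus RA, HO-rWNT5A minus HO and HO-rWNT5A minus RA; each point is a gene, filled where the limma adjusted p is under 0.05, and the bar is the median of the list. Filled points are 3 and 6 genes of the factor list, Egr1 among them in both, Serpinb2, Adamts14 and Pcsk5, and the middle panel has none.

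Across the 9 libraries the levels of the 7 tested genes paired off in part. Timp3 and Adamts1 had the highest Pearson r (0.850), then Mmp2 and Timp2 (0.779), while Timp1 and Adamts1 had the lowest (-0.842). The libraries share their groups and scaling, so these values are a description. Among 7606 other genes averaging 5 FPKM or more, the gene most like each in log2(FPKM + 1) over the 9 libraries was Rnf130 for Mmp2 (r = 0.971), Ccn2 for Mmp9 (0.968), Strn4 for Mmp14 (0.931) and Mvb12a for Timp1 (0.967). For Timp2 it was Sec61a1 (0.978), for Timp3 Bnip3 (0.965) and for Adamts1 Snx10 (0.980).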

How the data were processed

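RNA of 9 libraries was sequenced as 150-base paired reads from total RNA. Per the labels' protocols, the authors trimmed reads with Skewer 0.2.2, aligned them with STAR 2.5.3a and assembled and merged transcripts with StringTie 1.3.1, set against Ensembl with gffcompare 0.9.9c. The deposited values are FPKM of 143043 transcripts, in a table whose 9 columns were all used. The submitters' processing notes list mm10 and hg38, and 99.36% of the Ensembl mouse identifiers were found in GENCODE M21 (GRCm38), which gave names and coordinates.

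FPKM was summed per gene and each library was divided by its median ratio to the geometric mean over genes with at least 1 FPKM in all libraries. Genes averaging 1 FPKM or more were tested on log2(FPKM + 1), which understates the change of low genes, with limma 3.58.1 in R 4.3.3. The model held all 9 libraries, with a trend of the variance on the level. Tests were two-sided, adjusted over 13831 genes by Benjamini-Hochberg, with a threshold of 0.05. Whole reads could not be recovered from the FPKM. Between 8.02% and 9.02% of low values were whole multiples, within 0.02, of the commonest product of FPKM and length, which 28 to 84 transcripts of a library held. The depth of 21300000 to 26500000 fragments read from it is therefore rough, and no count test was run.

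The genes, lists and tests were chosen with earlier results of these data known. All 10 genes are named whatever their value. Of each other list the genes past the threshold (at most 4 by smallest p) and the 3 most abundant were eligible, and named genes outside that rule (Pecam1, Cdh5, Syn1, Syn3, Cep295nl, Timp4, Furin, Cd44, Dpt, Pdgfra, Ly6g, S100a8, S100a9, Mmp1a, Mmp7, Mmp12, Mmp20, Fos, Ets1) were chosen after their values were seen. Python 3.11.15, pandas 2.3.3 and matplotlib 3.10.9 made the tables and plots.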

Additional observations from a re-analysis of the deposited data

How the results depend on the processing

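Of 441 fitted differences of the 7 tested genes under 21 alternatives per comparison, 412 kept their direction and side of the threshold, 6 newly passed, 0 were lost and 23 changed sign, these with a main difference of at most 0.062 in size. Where no construction of the alternative shows the cause, the cause was not tested. On FPKM as deposited Mmp14 was -0.0505 in HO against RA and -0.0439 in HO-rWNT5A against RA. Scaled to the protein-coding total, Mmp14 was -0.0053 in HO against RA, and Timp1 was 0.0198 and Adamts1 0.0101 in HO-rWNT5A against HO. By quantiles these were -0.0195 for Mmp14, 0.021 for Timp1 and 0.0071 for Adamts1. With protein-coding transcripts only, Mmp14 was -0.013 and Timp1 0.0034 in the same comparisons.

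With 1 library left out, differences in HO against RA ran from -0.012 to 0.032 for Mmp14 and from -0.015 to 0.14 for Timp2. In HO-rWNT5A against HO they ran from -0.0102 to 0.049 for Mmp14, from -0.12 to 0.059 for Timp1 and from -0.11 to 0.041 for Adamts1. In HO-rWNT5A against RA they ran from -0.084 to 0.00015 for Mmp2 and from -0.0022 to 0.057 for Mmp14.

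Of all genes, 272 passed in HO against RA, 1 in HO-rWNT5A against HO and 600 in HO-rWNT5A against RA. With no filter on low values the counts were 74, 0 and 224, and with a pseudocount of 0.1 as well, chosen after seeing the data, 74, 1 and 228. With protein-coding transcripts only, 146 passed in HO against RA. Fitted as 2 groups alone the counts were 72, 3 and 1348. Leaving out 1 library gave 2 (without RA replicate 2) to 697 (without HO replicate 3) in HO against RA, 1 to 26 (without HO replicate 3) in HO-rWNT5A against HO, and 124 (without RA replicate 1) to 1031 (without HO replicate 3) in HO-rWNT5A against RA. Of the 10 genes, 0 to 1 passed with 1 library left out in HO against RA, and 2 passed on FPKM as deposited and 2 with 2 groups alone in HO-rWNT5A against RA.

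Same-numbered libraries of different groups had correlations of deviations from -0.116 to 0.279, the highest between HO-rWNT5A and HO replicate 1. Differently numbered libraries were not compared, so these values cannot settle whether replicate numbers pair the libraries. With the replicate block 122, 2 and 387 genes passed, and 0 of the 10. The rough depth limits what can be said of Mmp3 and Mmp13, whose values stand for few fragments.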
